A study of Mus musculus with 12 samples.

Results

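The genes of fatty acid uptake, activation and oxidation were examined for H3K27ac in cardiomyocytes (CMs) from mice with cardiac deletion of *Nrip1*, the gene that encodes the corepressor RIP140. The list held 38 genes, from the lipase and carriers that supply fatty acids to the cell to the enzymes of each step of the β-oxidation spiral, and was 38 of the 21938 protein-coding genes of GENCODE M21 on the chromosomes used. Each gene was given a window made of the gene body and 5 kb on each side (build GRCm38), and the H3K27ac regions of each genotype that overlapped this window were counted and measured. Every one of the 38 genes had a region in at least 1 genotype, as did 14443 of all coding genes. The windows met 103 of the 53754 regions of control CMs and 93 of the 45521 regions of RIP140-null CMs.

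RIP140-null CMs came from csNrip1-/- mice (labelled Nrip1 f/f Cre+), in which a Cre recombinase under the Nkx2.5 promoter deletes the floxed *Nrip1* allele, and control CMs came from littermates that carried the floxed allele without Cre (Nrip1 f/f Cre-). All mice were 10 to 12 weeks old and, per the study, male. Nkx2.5-Cre is known to act from early heart development, so these mice do not model an acute loss of RIP140, and the control mice carried no Cre. CUT&RUN, in which an antibody directs a nuclease to chromatin and the released DNA is sequenced, was run on 200000 CMs per experiment with an antibody against H3K27ac, an acetylated histone mark of active promoters and enhancers, in 3 replicates per genotype, and with IgG in 3 more. CMs were separated from the perfused heart by spinning at low speed, which can leave other heart cells among them.

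Fatty acids are the main fuel of the adult heart. They are released from lipoproteins at the vessel wall, carried into the CM, joined to coenzyme A, moved into the mitochondrion as carnitine esters and shortened there by a cycle of dehydrogenation, hydration, a further dehydrogenation and thiolysis. Malonyl-CoA blocks the carnitine step, and electrons leave the cycle through NADH and the electron transfer flavoprotein. The nuclear receptors ERR and PPAR, whose activity RIP140 can repress, are known regulators of many of these genes, and MEF2 is a factor of heart muscle development.

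For each genotype the authors deposited 1 list of the regions found in at least 2 of 3 replicates. The lists hold positions without a signal or a value per replicate, so each quantity below is 1 value per genotype, no replicate error or test could be given, the depth is unknown, and a difference in the strength of H3K27ac within a region that both genotypes share was not measured. The lists differed as a whole, with a median region width of 1846 bp for control and 2291 bp for KO regions and a total length of 151 and 154 Mb, so the main counts are given beside their shares over all coding genes. The longest exon of *Nrip1* (chr16:76287400-76295015) held 2904 bp of control regions and 0 bp of KO regions. Of 6 CM marker genes, 6 had a region in each genotype. Regions took up 10.4% of their pooled windows in control and 11.7% in RIP140-null CMs. By gene, the CM shares ran from 3.21% and 4.28% at *Ryr2* to 69.5% and 77.0% at *Tnni3*, with *Myh6* next to lowest (23.0% and 19.4%). The 5 endothelial marker genes also had regions in both genotypes, over 19.1% and 22.5% of their pooled windows. By gene, these ran from 7.73% (*Emcn*) to 31.4% (*Pecam1*) in control and from 3.30% (*Cdh5*) to 39.2% (*Pecam1*) in RIP140-null CMs. A pooled share gives long windows most weight, so these shares do not rank the cell types. Fibroblast markers were covered over 0.817% and 0.437% and macrophage markers over 0.455% and 0.974%, with *Col1a2*, *Dcn*, *Tcf21*, *Csf1r*, *Adgre1* and *Ptprc* at 0 in both lists. Markers of a type did not all differ the same way: *Cd68* had 1173 bp in control and 4128 bp in KO regions while *Mrc1* had 754 and 0 bp, and among endothelial markers *Cdh5* (5079 and 1743 bp) and *Tie1* (2498 and 1645 bp) had less in KO regions. Endothelial cells also express *Cd36*, *Lpl* is made by CMs and other cells, and a change in the share of a cell type cannot be told apart here from a change within CMs. The part of endothelial chromatin in the results was not tested.

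Regions overlapping no region of the other genotype by even 1 bp were called KO-only or control-only. Among the fatty acid genes, 12 (31.6%) had a KO-only region, against a share of 35.2% of all coding genes with a region. A control-only region was found at 14 genes (36.8%), against 39.2% of all. Thus both shares of genes were close to those of coding genes at large. Both kinds were found at 7 genes (18.4%, against 17.8% of all), *Cpt1a*, *Acadl*, *Acadm*, *Acsl3*, *Acaca*, *Acot7* and *Acot13*, and neither at 19 genes (50.0%, against 43.4%). In all, 14 KO-only and 16 control-only regions were found. Of the KO regions at these genes, 15.1% were KO-only, against 21.5% of the KO list. Of the control regions at these genes, 15.5% were control-only, against 29.5% of the control list. Counted by region, both shares were thus below those of the whole lists. The order of the 2 counts turned with the regions kept: 12 KO-only and 8 control-only regions were at least 1000 bp wide, and 17 and 9 were found with equal numbers of the widest regions in each list, which removed control regions alone. No shares over the whole lists were counted under these settings, so the turn cannot be called particular to the fatty acid genes. The KO-only and control-only regions at these genes were small. The median width was 1882 bp for KO-only regions (range 628 to 4762 bp) and 997 bp for control-only regions (range 627 to 3262 bp), whereas shared regions at the same genes had medians of 4320 and 2965 bp.

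The length covered by regions was compared for the 37 genes covered in both lists. It was longer in RIP140-null CMs at 22 genes (59.5%, against 58.1% of all) and shorter at 15 (40.5%, against 41.8%), and the log2 ratio of the length in RIP140-null to that in control CMs had a median of 0.14, against 0.08 over all coding genes covered in both. The covered length was more than 1.5-fold longer in RIP140-null CMs at 7 genes (18.9%, against 16.3% of all): *Crat*, *Acaca*, *Fabp3*, *Acsl5*, *Ehhadh*, *Slc27a1* and *Acot7*. It was more than 1.5-fold shorter at 2 genes (5.41%, against 8.6% of all), *Etfdh* and *Acsl6*. With each base counted once, control regions covered 464587 bp of the windows and KO regions 522418 bp.

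**Figure D1:**
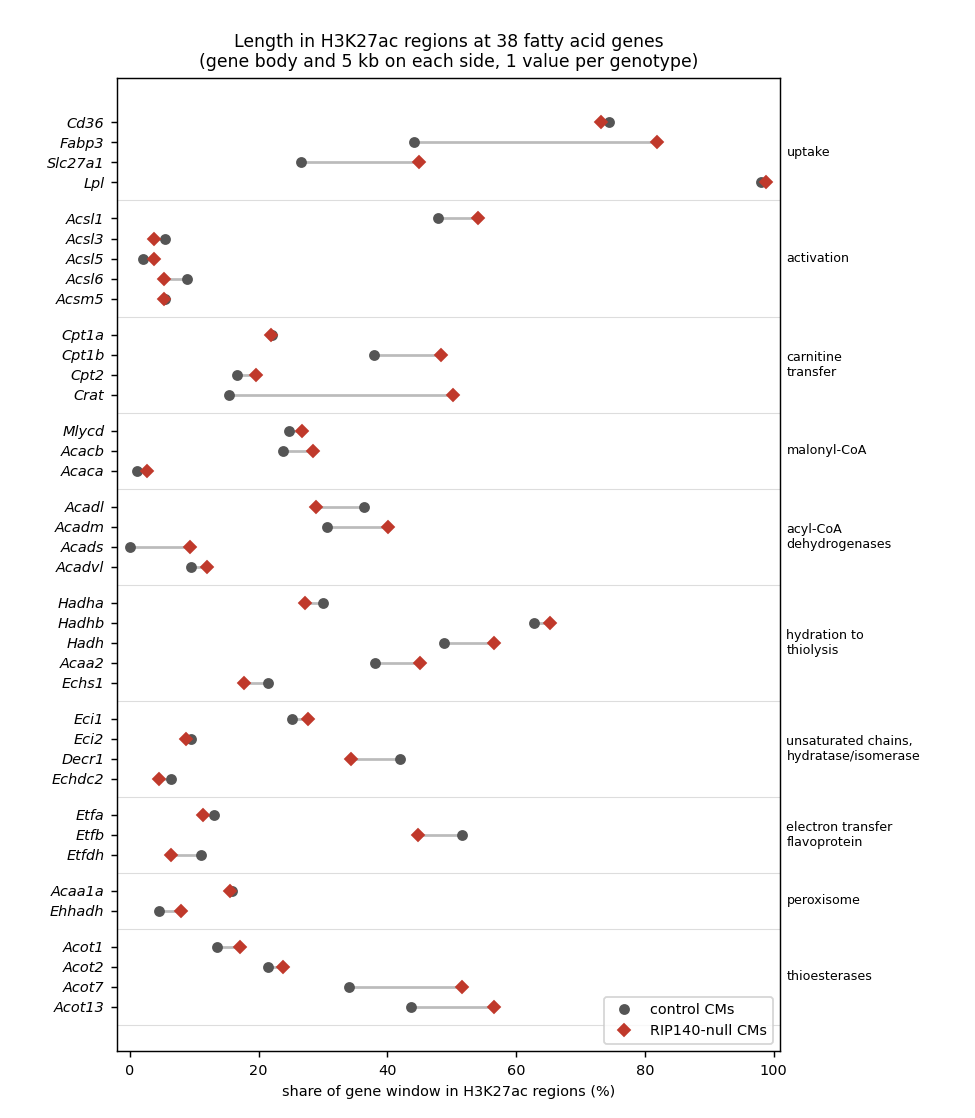
Share of each gene window (gene body and 5 kb on each side) that lay in H3K27ac regions, in percent, for the 38 genes grouped by role, with 1 value for control CMs (gray circles) and 1 for RIP140-null CMs (red diamonds). *Lpl*, *Cd36* and *Hadhb* were covered over most of their windows in both genotypes, and the longest gaps between symbols are those of *Fabp3* (44.1% and 82.0%) and *Crat* (15.4% and 50.2%).

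**Figure D2:**
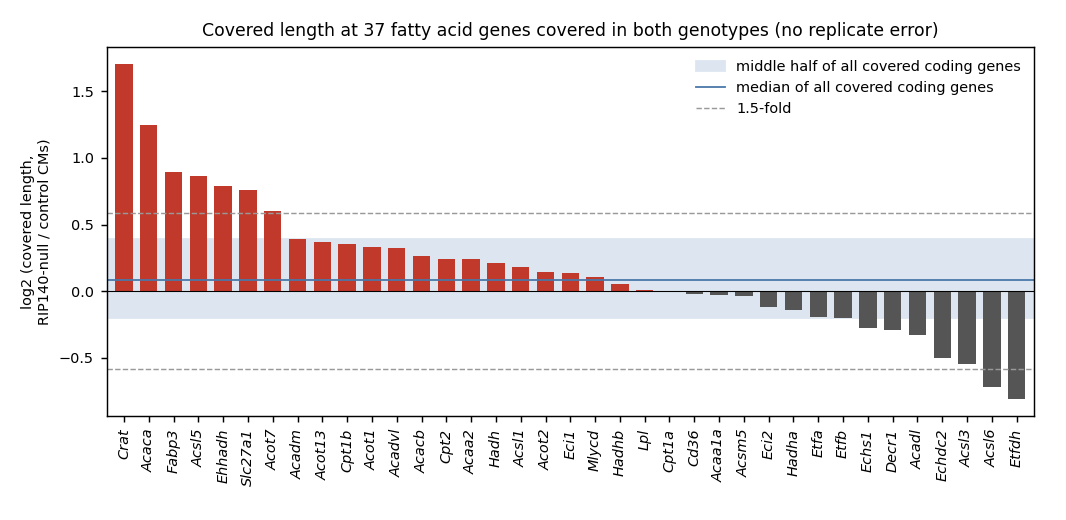
Log2 ratio of covered length, RIP140-null over control CMs, for the 37 genes covered in both lists, in falling order, with the 1.5-fold limits (dashed), the median of all coding genes (0.08) and their interquartile range (-0.20 to 0.39, shaded). The bars run from 1.71 at *Crat* to -0.81 at *Etfdh*, and most lie inside the shaded range.

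The median share of a gene window in H3K27ac regions was 22.87% in control CMs and 26.97% in RIP140-null CMs, against 11.4% and 12.4% over all coding genes with a region. The roles differed, from 5.46% and 5.33% at the synthetases to 59.3% and 77.6% at the uptake genes, and the 29 other fatty acid genes described last had medians of 9.15% and 10.7%, below those of all coding genes. Regions wider than 10000 bp made up 8.74% of the control regions at these genes against 3.09% of the control list, and 12.9% of the KO regions at these genes against 4.42% of the KO list. No test was made of these shares.

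The 4 uptake genes were *Lpl*, the lipoprotein lipase, *Cd36*, the main fatty acid translocase of the CM membrane, *Slc27a1*, a fatty acid transport protein, and *Fabp3*, the cytosolic fatty acid binding protein of heart. *Lpl* (chr8:68880491-68907448) and *Cd36* (chr5:17781690-17888801) lay under broad blocks that differed little in length. At *Cd36*, regions covered 87251 bp of the window in control and 85805 bp in RIP140-null CMs, and the control region of 90338 bp over its start was the widest of the whole control list. In RIP140-null CMs, the same block was listed as regions of 60427, 2034 and 36953 bp with gaps of 847 and 23 bp between them. Regions covered 36236 and 36542 bp of the *Lpl* window, 98.05% and 98.87% of it. Each gene had 3 regions in each list, and the widths of the regions differed where the covered length hardly did.

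*Fabp3* (chr4:130308595-130315463) was covered over 7442 bp in control and 13826 bp in RIP140-null CMs, a log2 ratio of 0.89. A shared region held its start in both, 7442 bp wide in control and 9411 bp in RIP140-null CMs. The rest of the difference was a KO-only region of 4415 bp (chr4:130314686-130319100) that began in the last part of the gene and ran downstream of it. The nearest start of a coding gene to both regions was annotated to *Gm10570*, not *Fabp3*. Without the 5 kb on each side, the log2 ratio of *Fabp3* was 0.28. *Slc27a1* (chr8:71568882-71587302) was covered over 7570 bp in control and 12780 bp in RIP140-null CMs, a log2 ratio of 0.76, with no genotype-only region. Its start lay in a region of 3711 bp in control CMs and in one of 9966 bp in RIP140-null CMs. The latter also reached into the next control region, over 1014 of its 1836 bp.

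**Figure D3:**
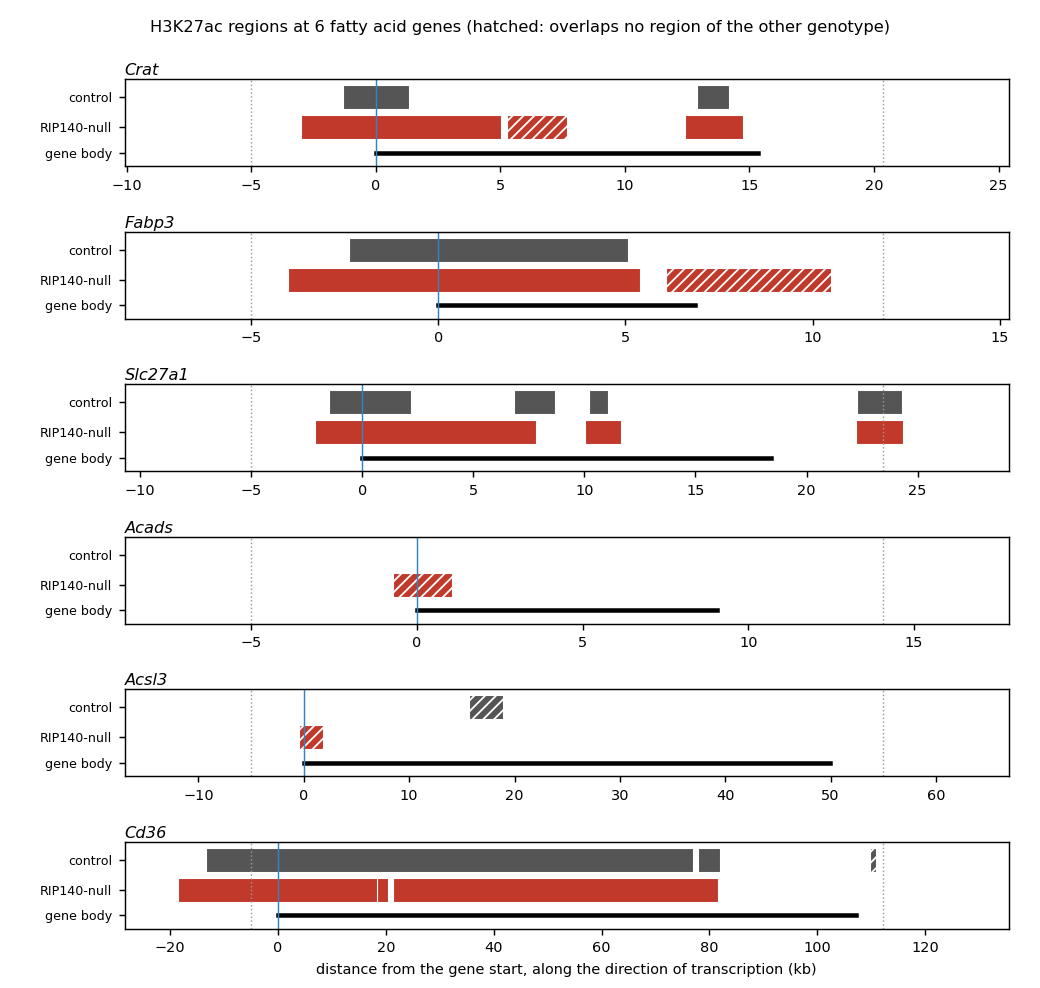
H3K27ac regions of control CMs (gray) and RIP140-null CMs (red) at 6 genes, by distance from the gene start in kb along the direction of transcription, with the gene body in black, the start in blue and the window limits dotted. Hatched boxes overlap no region of the other genotype: they lie at the start of *Acads* and *Acsl3* in RIP140-null CMs, within *Crat*, at the end of *Fabp3*, and in control CMs within *Acsl3* and downstream of *Cd36*.

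Acyl-CoA synthetases activate fatty acids by joining them to coenzyme A. *Acsl1*, the main long-chain form of heart, was covered over 35914 bp in control and 40625 bp in RIP140-null CMs (log2 ratio 0.18), in 7 control and 3 KO regions. KO regions of 11883 and 22791 bp stood where 5 control regions did, and a control-only region of 798 bp lay downstream of the gene. The other synthetases were thinly covered, with 2.03% to 8.83% of their windows in either list. *Acsl5* had 1133 bp in control and 2060 bp in RIP140-null CMs in a single shared region (log2 ratio 0.86). *Acsl6* had 4 shared regions, 6268 bp in control and 3810 bp in RIP140-null CMs in all (log2 ratio -0.72). *Acsm5*, a medium-chain synthetase, had 1970 and 1922 bp (log2 ratio -0.04).

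*Acsl3* (chr1:78657825-78707743) was the only one of the 38 genes covered in both lists by regions with no base in common. In RIP140-null CMs a region of 2235 bp (chr1:78657396-78659630) held its start. The start lay 15643 bp from the nearest control region, which was an intronic region of 3262 bp (chr1:78673468-78676729) absent from the KO list. The start of the coding gene *Utp14b* lies nearer to the center of the KO region than that of *Acsl3*, so the region could not be given to either gene alone. The 250 bases upstream of the *Acsl3* start (chr1:78657575-78657824, plus strand, RefSeq, GRCm38.p6), all inside the KO region and outside every control region, are given here because the start was covered in RIP140-null CMs alone. Capitals mark GGGCGG, the GC box bound by Sp1, or its complement, found at 5 places on both strands.

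Acsl3 promoter: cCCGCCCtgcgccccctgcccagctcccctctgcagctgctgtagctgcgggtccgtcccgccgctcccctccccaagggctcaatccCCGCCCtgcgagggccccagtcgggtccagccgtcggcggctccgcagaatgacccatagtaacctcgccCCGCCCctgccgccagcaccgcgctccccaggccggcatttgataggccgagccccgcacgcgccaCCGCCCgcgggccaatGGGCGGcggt

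Of this sequence 75.6% was G or C. A GC box was found in 32.7% of the 32851 RefSeq promoters cut in the same way and in 23 of the 37 promoters listed for 32 of the fatty acid genes.

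Carnitine transfer carries acyl groups into the mitochondrion. *Crat*, carnitine acetyltransferase, which exports acetyl groups as acetylcarnitine (chr2:30400471-30415813), had the highest ratio of the list, with 3901 bp covered in control and 12734 bp in RIP140-null CMs (log2 ratio 1.71). Its start lay in a region of 2640 bp in control CMs and of 8029 bp in RIP140-null CMs, and a KO-only region of 2406 bp (chr2:30408151-30410556) followed after a gap of 234 bp in the gene body. The ratio was as high with no extension of the gene body (1.91) and with 10 kb (1.85). *Cpt1b*, the muscle form of the enzyme that makes long-chain acylcarnitine, had 1 shared region over its start, of 7690 bp in control and 11018 bp in RIP140-null CMs, and a log2 ratio of 0.35 within its window. *Cpt2*, which converts acylcarnitine back inside the mitochondrion, had a start region of 3502 bp in control and 5821 bp in RIP140-null CMs, and its window also held a control-only intronic region of 1411 bp (4913 and 5821 bp covered, log2 ratio 0.24).

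*Cpt1a*, the liver form of that enzyme, also present in heart (chr19:3322334-3385733), was covered over nearly the same length in both genotypes, 16155 and 16089 bp (log2 ratio -0.01), but not at the same places. It had 5 regions in each list, of which 2 were KO-only and 2 control-only. The KO-only regions were intronic, 1992 bp (chr19:3335555-3337546) and 1269 bp (chr19:3356237-3357505) wide, as were the control-only regions of 1128 bp (chr19:3343182-3344309) and 929 bp (chr19:3359587-3360515). The region over its start was 5603 bp wide in control and 5786 bp in RIP140-null CMs.

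Malonyl-CoA is made by acetyl-CoA carboxylases and removed by *Mlycd*, malonyl-CoA decarboxylase. *Acacb*, the carboxylase tied to the mitochondrial membrane (chr5:114146535-114250761), had 7 regions in each list over 27103 bp in control and 32580 bp in RIP140-null CMs (log2 ratio 0.27). Its KO-only region was intronic and 1019 bp wide (chr5:114199079-114200097). *Acaca*, the cytosolic carboxylase of fatty acid synthesis, had 3216 bp in control and 7635 bp in RIP140-null CMs (log2 ratio 1.25) in a window of 281980 bp, so that 1.14% and 2.71% of it were covered. It had 2 KO-only regions (3390 and 2208 bp) and 2 control-only regions (627 and 847 bp), all intronic. Its outermost annotated start lay in no region of either list, while 2 of its 6 coding transcript starts did in each list. At *Mlycd*, a single KO region of 6995 bp stood where the control list had regions of 2521 and 3977 bp (6498 and 6995 bp covered, log2 ratio 0.11).

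The acyl-CoA dehydrogenases start each turn of the cycle and differ in chain length, from *Acadvl* (very long) over *Acadl* (long) and *Acadm* (medium) to *Acads* (short). *Acads* (chr5:115110299-115119346) was the only gene of the list with no region in 1 genotype. It had 0 bp in control CMs, and a KO-only region of 1771 bp over its start (chr5:115118285-115120055). A missing region says that enrichment was not listed in 2 of 3 replicates, not that the mark was absent. *Acadm* had 9899 and 12967 bp (log2 ratio 0.39), with a KO-only region of 1219 bp upstream of the gene and a control-only region of 1064 bp at an exon, which lay within 1000 bp of a KO region. *Acadl* had 15435 and 12284 bp (log2 ratio -0.33), with a KO-only region of 661 bp and a control-only region of 1087 bp, both intronic. *Acadvl* had 1 shared region of 1450 bp in control and 1815 bp in RIP140-null CMs.

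The 250 bases upstream of the *Acads* start (chr5:115119347-115119596, minus strand, RefSeq, GRCm38.p6) lay whole in the KO region and in no control region. Capitals again mark a GC box, of which there was 1.

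Acads promoter: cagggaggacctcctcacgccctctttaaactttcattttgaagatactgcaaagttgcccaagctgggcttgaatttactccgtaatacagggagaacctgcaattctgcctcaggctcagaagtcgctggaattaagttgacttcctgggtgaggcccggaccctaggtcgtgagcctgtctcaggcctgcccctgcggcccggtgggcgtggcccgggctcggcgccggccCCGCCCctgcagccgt

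The next steps of the cycle are hydration, the second dehydrogenation and thiolysis. *Hadha* and *Hadhb*, the subunits of the mitochondrial trifunctional protein, stand head to head on chromosome 5 and share 1 region in each list over both starts, 21232 bp wide in control and 17465 bp in RIP140-null CMs. Their covered lengths were 14051 and 12775 bp for *Hadha* (log2 ratio -0.14) and 24687 and 25672 bp for *Hadhb* (log2 ratio 0.06), and *Hadha* had a control-only intronic region of 662 bp. *Hadh*, the 3-hydroxyacyl-CoA dehydrogenase for shorter chains, had 23737 and 27548 bp (log2 ratio 0.21), in 5 control and 3 KO regions. *Acaa2*, the thiolase, had 14118 and 16672 bp (log2 ratio 0.24). *Echs1*, the short-chain hydratase, had 4461 and 3681 bp (log2 ratio -0.28). None of these 5 genes had a KO-only region or passed the 1.5-fold limit in either direction.

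*Decr1*, *Eci1* and *Eci2* handle unsaturated chains, and *Echdc2* encodes a hydratase-like protein. Covered length was shorter in RIP140-null CMs at 3 of these 4 genes, of which *Eci2* had a ratio above 0 (0.08) with no extension of the gene body. *Decr1* had 16037 and 13139 bp (log2 ratio -0.29) and a control-only intronic region of 1197 bp. *Echdc2* had 1 region, over its start, of 1536 bp in control and 1088 bp in RIP140-null CMs (log2 ratio -0.50). *Eci2* had 5592 and 5162 bp (log2 ratio -0.12) with a control-only region of 697 bp downstream of the gene, and *Eci1* had 5713 and 6289 bp (log2 ratio 0.14).

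The electron transfer flavoprotein subunits *Etfa* and *Etfb* and their membrane dehydrogenase *Etfdh* take up electrons from the acyl-CoA dehydrogenases. All 3 had a shorter covered length in RIP140-null CMs. *Etfa* had 8825 and 7697 bp (log2 ratio -0.20) and a control-only intronic region of 1283 bp. *Etfb* had 12221 and 10632 bp (log2 ratio -0.20), and its control region of 12221 bp stood where the KO list had regions of 7631 and 3001 bp. *Etfdh* (chr3:79603788-79629500) had the lowest ratio of the list, 3959 bp in control and 2258 bp in RIP140-null CMs (log2 ratio -0.81), in 1 shared region. The coding start nearest to the center of this region was that of *4930579G24Rik* in both lists. It lay 1151 bp from the center in control and 778 bp in RIP140-null CMs, against 1572 and 1199 bp for *Etfdh*. The KO region ended 70 bp short of the annotated start of *Etfdh*, and the RefSeq start, 733 bp further in, lay behind a promoter that regions of both lists covered over all of its 250 bp.

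The peroxisomal genes were *Acaa1a*, a thiolase, with 3278 and 3219 bp (log2 ratio -0.03), and *Ehhadh*, the bifunctional enzyme, with 1677 and 2893 bp (log2 ratio 0.79). *Ehhadh* had a KO-only intronic region of 628 bp, and the edge of a region near the start of *Map3k13* also fell in its window. Thioesterases split acyl-CoA. All 4 thioesterase genes had a longer covered length in RIP140-null CMs. *Acot7* (chr4:152178134-152271855) had 35303 bp in 13 control regions and 53541 bp in 12 KO regions (log2 ratio 0.60), the largest difference in bp of the list (18238 bp). Of its KO regions, 1 was KO-only, an intronic region of 4762 bp (chr4:152253020-152257781) that was the widest genotype-only region of the list, and a control-only region of 662 bp lay within 1000 bp of a KO region. *Acot13* had 10311 and 13332 bp (log2 ratio 0.37), with a KO-only region of 1449 bp downstream and a control-only region of 677 bp at the upstream edge of its window. *Acot1* had 2570 and 3228 bp (log2 ratio 0.33) and *Acot2* had 3437 and 3804 bp (log2 ratio 0.15). With no extension of the gene body, the ratios of *Acot1*, *Acot2* and *Acot13* were -0.38, -0.09 and -0.05.

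The genotypes were close in whether the gene start lay in a region, though the widths of those regions differed. Here the start was the outermost annotated start of the gene. It lay in a region of both lists at 30 of the 38 genes (78.9%, against 62.4% of all coding genes with a region). At 5 genes (13.2%, against 24.9%) it lay in neither: *Eci2*, *Acsl5*, *Acsl6*, *Acsm5* and *Acaca*. Starts of coding transcripts of these genes did lie in regions of each list at *Eci2* (6 of 7), *Acsm5* (4 of 4), *Acaca* (2 of 6) and *Acsl5* (1 of 4). At *Acsl6*, 1 of 11 lay in a control region and 0 in a KO region. The outermost start lay in a KO region alone at 2 genes (5.26%, against 8.97% of all coding genes with a region), *Acads* and *Acsl3*, and in a control region alone at 1 gene (2.63%, against 3.79%), *Etfdh*. The median width of the region over the start was 5658 bp in control and 7664 bp in RIP140-null CMs, against 2647 and 2901 bp for all coding genes. Of the 30 genes, 8 had a start region more than 1.5-fold wider in RIP140-null CMs (26.7%, against 18.7% of all), and 4 had one more than 1.5-fold narrower (13.3%, against 7.48%). The wider ones were at *Hadh*, *Acot7*, *Crat*, *Mlycd*, *Slc27a1*, *Acsl1*, *Cpt2* and *Acaa2*, and the narrower ones at *Cd36*, *Acot13*, *Lpl* and *Etfb*.

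**Figure D4:**
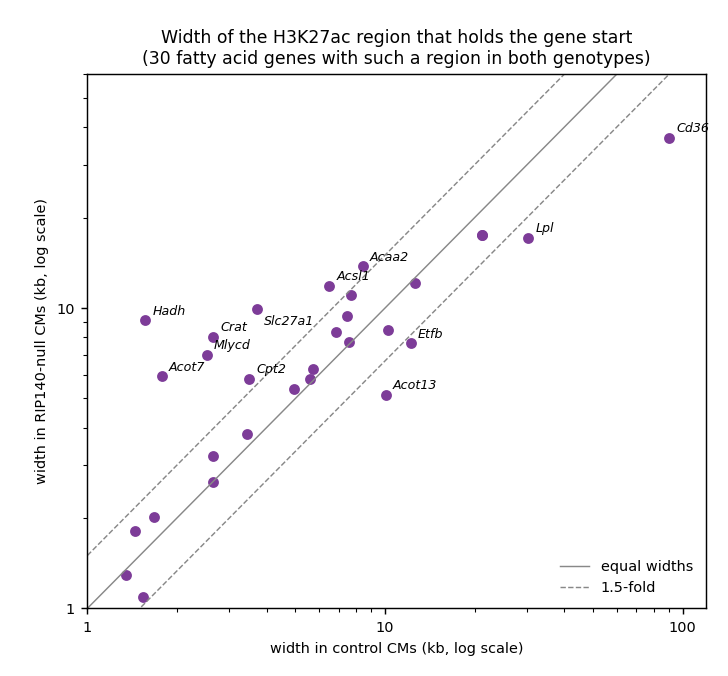
Width in kb of the H3K27ac region that holds the gene start, in control CMs (x axis) and RIP140-null CMs (y axis), on log scales, for the 30 genes with such a region in both lists. *Hadha* and *Hadhb* share 1 point, genes outside the 1.5-fold lines are named, and the start regions widest in control CMs, at *Cd36* and *Lpl*, lie below the line of equal widths.

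A width also reflects where neighboring regions were joined into 1. A KO region that overlapped 2 or more control regions was found at 11 fatty acid genes (28.9%, against 19% of all coding genes with a region), and a control region that overlapped 2 or more KO regions at 8 (21.1%, against 11.8%). *Hadh* is an example, since its start region was 1567 bp wide in control and 9129 bp in RIP140-null CMs, while the covered length of the gene differed by a log2 ratio of 0.21.

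Of the 14 KO-only regions, 12 overlapped the gene body, 2 held a gene start and 12 had 2 subpeaks, the lowest number seen at these regions. Of the 16 control-only regions, 12 overlapped the gene body, 0 held a gene start and 15 had 2 subpeaks. The center lay in an intron in 11 KO-only and 11 control-only regions. No share over all KO-only or control-only regions stands beside these counts. The windows were built around gene bodies, so the counts were not read as a trait of these regions. Another coding gene had the start nearest to the center of 7 KO-only and 8 control-only regions, so that a region in a window need not belong to that gene.

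DNA of the regions was searched on both strands for TCAAGGTCA, a consensus of ERR sites that holds the nuclear receptor core AGGTCA. It was found at 21 places in regions of 15 fatty acid genes. Of these, 15 lay in regions of both lists, 6 in KO regions alone and 0 in control regions alone. KO regions at these genes were also longer in all (549611 bp against 501020 bp), and per 100 kb of region sequence there were 2.99 matches in control and 3.82 in KO regions, against 3.27 and 3.36 over all regions of the lists. The 6 matches in KO sequence alone were at *Cpt1a*, *Cpt2*, *Slc27a1*, *Acacb*, *Acot2* and *Acot7*. Only the match at *Cpt1a* lay in a KO-only region, and the other 5 lay where a KO region reached past the shared one. Some matches lie in repeats that are masked in the RefSeq genome: 8 of the 21, among them those of *Slc27a1* and *Acot2*, against 40.0% of the 4946 matches in all control regions and 39.2% of the 5176 in all KO regions.

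The following 12 matches are the one in a KO-only region and then those nearest to a gene start. Each is written 5′ to 3′ on the strand of the motif (GRCm38.p6), with the match in capitals and 8 bases on each side. They are shown because the flanks differ between sites.
Cpt1a, intron, KO-only region, chr19:3357025-3357033: ccagaaacTCAAGGTCAtcattggc
Mlycd, intron, both lists, chr8:119395814-119395822: gccaaaagTCAAGGTCAccaccgcc
Fabp3, upstream, both lists, chr4:130307522-130307530: tctttagtTCAAGGTCAacccctgc
Acacb, intron, both lists, chr5:114147875-114147883: tgggaatcTCAAGGTCAtctcactg
Slc27a1, upstream, KO region alone, masked repeat, chr8:71567185-71567193: ctctgaatTCAAGGTCAgcccaggt
Fabp3, upstream, both lists, chr4:130306841-130306849: tttctgatTCAAGGTCAcaggcttt
Acacb, intron, both lists, masked repeat, chr5:114148316-114148324: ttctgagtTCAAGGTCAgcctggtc
Acot2, upstream, KO region alone, masked repeat, chr12:83985950-83985958: ctgcaagtTCAAGGTCAgcctgggc
Cpt2, intron, KO region alone, chr4:107920539-107920547: atctgaccTCAAGGTCAgggctcct
Acacb, upstream, both lists, masked repeat, chr5:114142975-114142983: ctctgagtTCAAGGTCAaccaagtc
Acot13, intron, both lists, masked repeat, chr13:24826318-24826326: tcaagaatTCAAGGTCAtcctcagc
Hadha, intron, both lists, masked repeat, chr5:30149605-30149613: ccaagaatTCAAGGTCAtactgggc

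The match nearest to a start was that of *Mlycd*, 940 bp into the gene, and *Fabp3* had matches 1069 and 1750 bp upstream of its start. *Acacb* had the most matches, 6, of which 5 lay in regions of both lists. A match is a run of letters and was not shown to be bound. With any base allowed in the second position (TNAAGGTCA), there were 50 matches at 23 genes, of which 35 lay in both lists' regions, 12 in KO regions alone and 3 in control regions alone. Masked repeats held 12 of the 50. Per 100 kb there were 7.58 in control and 8.55 in KO regions, against 7.38 and 7.49 over all regions of the lists.

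PPAR sites were searched as 2 copies of AGGTCA, 1 base apart, with at most 1 mismatch. There were 20 matches at 16 genes, of which 16 lay in regions of both lists, 2 in KO regions alone and 2 in control regions alone. Masked repeats held 7 of the 20, among them 1 of the 2 in KO regions alone. Per 100 kb there were 3.59 matches in control and 3.28 in KO regions, against 2.29 and 2.37 over all regions of the lists. No test was made of these densities. The only match in a genotype-only region lay 446 bp into *Acads*, in the KO-only region over its start. A match with no mismatch lay 9345 bp upstream of *Cd36*, in regions of both lists. The MEF2 consensus was found at 20 places at 8 genes, 19 of them in regions of both lists and 1, upstream of *Acot7*, in a KO region alone. KO regions that met a gene window held 18 of these. The matches at chr8:68868132-68868141 and chr8:68923039-68923048 lay in KO regions beyond the *Lpl* window. Per 100 kb there were 3.79 MEF2 matches in control and 3.28 in KO regions at these genes, against 3.79 and 3.61 over all regions. The match nearest to a start lay 220 bp upstream of *Cpt1b*. These 3 sites were picked after their values were seen.
Acads, PPAR, intron, KO-only region, chr5:115118894-115118906: tatgtccaAGGTCATAGGTCGgagttaaa
Cd36, PPAR, upstream, both lists, chr5:17898140-17898152: ttgaacatAGGTCAAAGGTCAggaaactg
Cpt1b, MEF2, upstream, both lists, chr15:89426079-89426088: catcagtcCTAAAAATAGctgaatgt

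A further list of 33 genes of fatty acid handling was counted in the same way, and 29 of them had a region. Of these, 9 had a KO-only region (31.0%, against 35.2% of all coding genes with a region) and 6 a control-only region (20.7%, against 39.2%), and the median log2 ratio of covered length was 0.24, against 0.08. The covered length was more than 1.5-fold longer in RIP140-null CMs at 4 of the 28 genes covered in both (14.3%, against 16.3% of all), which were *Fabp5*, *Abcd3*, *Acox3* and *Acot11*, and more than 1.5-fold shorter at 0 (against 8.6%). *Fabp5*, a fatty acid binding protein also made by endothelial cells, had the highest ratio (936 and 4788 bp, log2 ratio 2.35). Its lengths came from 1 control-only and 1 KO-only region with no base in common, and its start lay in the KO region alone. *Pdk4*, which restrains glucose oxidation when fat is burned, had 6863 and 9829 bp (log2 ratio 0.52). *Slc25a20*, the carnitine-acylcarnitine carrier, had 3036 and 2588 bp (log2 ratio -0.23).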

How the data were processed

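The authors used bowtie2 2.4.2 for alignment (GRCm38) and samtools to drop duplicates. Homer 4.11.1, in its histone style and with IgG as background, called regions per replicate, and those seen in 2 or more of the 3 were kept. The deposited lists give each region's start and end and a score, which is the same for every region and was not used. No signal or fold value was used here, and the IgG libraries entered through the calls alone.

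Only chromosomes 1 to 19, X and Y were used (which dropped 21 control and 14 KO regions). The members, the other fatty acid genes, the marker lists and the choice of named genes (every gene with a genotype-only region, the 5 highest and 5 lowest ratios, genes the study names, and the rest by role) were chosen with earlier results of these data known. One gene the study names is not a member and is not reported here. A region was shared if it overlapped the other list by at least 1 bp. Covered length is the number of window bases in regions. Comparisons were descriptive, since samples of 1 genotype share 1 list. Subpeaks were read from region names. Alternatives changed the overlap, the window, the assignment of regions and the regions kept. The overlap and length steps were tested on simulated data. Motifs were read from the RefSeq GRCm38.p6 genome. Promoters were found for 32 of 38 genes. Software was samtools 1.23.1 and, in Python 3.11.15, matplotlib 3.10.9, pysam 0.24.0 and numpy 2.4.6.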

Additional observations from a re-analysis of the deposited data

How the results depend on the processing

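No paired analysis was possible because each genotype has 1 list made from its 3 replicates, and for the same reason no replicate could be left out. Of 65 values under alternatives, 49 stayed within 1.5 times the main count (or within 0.1 of the median log2 ratio) and 16 moved. Of these results only the median log2 ratio could change sign, and it did not. With a reciprocal overlap of 50% required, 20 genes had a KO-only and 23 a control-only region, with 32 and 44 such regions. Counting regions with 3 or more subpeaks left 2 genes with 2 KO-only regions and 1 gene with 1 control-only region. Counting regions at least 1000 bp wide left 8 genes with 8 control-only regions (10 genes with 12 KO-only regions), and equal numbers of the widest regions (45521 in each list, which removed control regions alone) left 8 genes with 9 control-only regions (15 genes with 17 KO-only regions). Thus the KO-only and control-only counts changed order with the regions kept. The alternative counts in this section were made for the fatty acid genes alone. They have no share over all coding genes beside them, so a shift cannot be called particular to these genes. At a 2-fold limit, 2 genes were more covered and 0 less covered in RIP140-null CMs. The number of genes more than 1.5-fold less covered was 4 with no extension of the gene body and 1 with equal numbers of the widest regions. The cause of these shifts was not tested beyond what each alternative removed or added by construction. The median log2 ratio of covered length stayed between 0.08 and 0.15. With no extension, 5 kb or 10 kb, the ratio was above 0 in all 3 windows at 16 genes, below 0 at 11 and of changing sign at 10 (*Acadvl*, *Hadhb*, *Acaa1a*, *Echs1*, *Eci2*, *Acot1*, *Acot2*, *Acot13*, *Acsm5* and *Lpl*). In these 3 windows *Slc27a1*, *Crat*, *Acaca*, *Acot7* and *Ehhadh* stayed above the 1.5-fold limit, and *Etfdh* and *Acsl6* beyond it in the other direction. With each region given to its nearest transcription start, *Ehhadh* had a log2 ratio of 0.27, inside the limit, and the others named stayed beyond it. Alternatives chosen after seeing the data were any annotated start of a coding transcript (in a KO region at 37 genes and in a control region at 36, against 32 and 31 for the gene start), any base of the promoter (33 and 31), and ERR matches outside masked repeats, of which 4 lay in KO regions alone against 6 with repeats.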
